A study of Homo sapiens with 171 samples.

Results

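The markers described here are 9 genes used to recognise ovarian carcinoma or to follow it in blood: the transcription factors PAX8, WT1 and SOX17, the mucins MUC16, MUC1 and MUC13, and the secreted or membrane-anchored proteins WFDC2, MSLN and FOLR1. They were chosen by name, with earlier results of these data known, and make up 9 of the 18417 genes measured with a probe set of a single symbol. Each of the 9 had 1 such probe set on the array. Affymetrix arrays gave the expression of 46 established human ovarian cancer cell lines, grown either untreated or with cisplatin, a DNA-crosslinking platinum drug, for 48 h at the GI50 concentration of the line. The dose therefore differed from line to line, and doses were not analysed here. The 167 cultures were 85 untreated and 82 treated, spread over 5 batches. Batches 1 to 3 held 18 lines with up to 3 cultures per treatment, and the other 28 lines had 1 culture per treatment in batch 4 or 5. OVCA433, PA-1 and SKOV-3 were grown in a second batch as well, PA-1 and SKOV-3 there only untreated. The labels give no genetic change or transgene for any group and do not say whether numbered cultures were grown separately. The p-values of tests on the replicated lines therefore measure the spread between these cultures, which may be technical. The tests over all 46 lines use 1 difference per line, and their p-values measure the spread between lines.

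PAX8 is a paired-box transcription factor of the Müllerian tract, the embryonic duct that gives rise to the oviduct and uterus, and pathologists stain for it to recognise tumours of that origin. SOX17 is an SRY-box factor that works alongside PAX8 in these cells, and WT1, a zinc-finger factor of the mesothelium and gonad, is stained to tell serous carcinoma from other types. MUC16 carries the CA125 epitope measured in blood to follow the disease. MUC1 is the transmembrane mucin of most glandular epithelia, and MUC13 is a transmembrane mucin typical of the intestinal and gastric lining that is also reported in mucinous tumours. WFDC2 encodes HE4, a secreted protein with whey-acidic-protein domains. MSLN encodes mesothelin, a surface protein of mesothelium to which MUC16 binds, and FOLR1 encodes folate receptor alpha, the target of antibody-drug conjugates.

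RefSeq promoter sequence, from GRCh38.p14, was at hand for 6 of the 9 genes, and the 250 bases before the annotated start were searched for 2 short motifs on both strands. CACCTG is the E-box bound by the repressors of the ZEB and SNAI families, which act on epithelial genes, and TGANTCA is the core bound by AP-1, a stress-responsive factor. CACCTG occurred in the windows of MUC1 and WFDC2 and TGANTCA in that of MUC13. These 3 windows are shown because they hold a match, 5′ to 3′ on the strand of the gene with the motif in capitals.
MUC1, chr1:155192916-155193165, minus strand: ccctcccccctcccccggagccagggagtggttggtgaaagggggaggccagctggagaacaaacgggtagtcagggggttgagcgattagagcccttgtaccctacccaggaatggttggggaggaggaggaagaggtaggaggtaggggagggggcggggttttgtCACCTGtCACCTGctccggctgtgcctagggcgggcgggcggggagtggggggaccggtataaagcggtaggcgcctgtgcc
WFDC2, chr20:45469503-45469752, plus strand: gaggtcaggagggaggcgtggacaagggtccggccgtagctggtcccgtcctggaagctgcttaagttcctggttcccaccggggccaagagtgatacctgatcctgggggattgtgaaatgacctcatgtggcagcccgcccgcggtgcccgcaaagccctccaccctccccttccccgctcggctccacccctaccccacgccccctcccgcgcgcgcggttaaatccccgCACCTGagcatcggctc
MUC13, chr3:124934752-124935001, minus strand: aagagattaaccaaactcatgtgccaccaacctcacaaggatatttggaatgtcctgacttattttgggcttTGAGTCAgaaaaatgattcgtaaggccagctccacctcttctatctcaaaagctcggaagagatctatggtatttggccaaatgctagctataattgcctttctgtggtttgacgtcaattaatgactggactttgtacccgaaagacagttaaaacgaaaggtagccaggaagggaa
In MUC1 the first bases of the CACCTG copies lay 82 and 75 bases before the start, in WFDC2 the single copy began 17 bases before it, and in MUC13 the TGANTCA match began 178 bases before it. CACCTG was found in 17.5% of 27305 promoter windows of the same length and TGANTCA in 6.6%, so neither is rare. The windows of PAX8, WT1 and MUC16 held no match, which says only that these letters are not in them. MUC16 is among these, and its level, like those of MUC1 and WFDC2, varied with the epithelial profile of the lines, as described below. The part of either motif in the level of any gene was not tested. A match is a description of the sequence, and no binding was measured.

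The values are log2 RMA values, and batches 1 to 3 lay on another scale than batches 4 and 5, with array upper quartiles of 7.82 to 8.08 against 5.80 to 6.59. Levels were therefore set side by side only within a batch, or as a deviation from the mean of the lines of the batch. The labels call the lines ovarian cancer without a tumour type, and their epithelial character was checked on EPCAM, CDH1 and KRT8, which define epithelium. EPCAM ran from 2.92 to 11.7 among the untreated lines of batch 1 and from 4.65 to 12.2 in batch 5. CDH1 ran from 4.64 to 11.0 and from 3.39 to 9.86 in the same batches. Low EPCAM did not always go with low KRT8, which stood at 12.1 in HeyC2, 11.6 in PA-1 and IGROV-1 and 11.0 in CH1, where EPCAM lay between 2.92 and 4.14. LIN28A, a gene of germ cell and pluripotent cells, stood at 12.7 in PA-1, 12.6 in CH1, 11.6 in A2780 and 11.3 in IGROV-1. SALL4, another such gene, was high in PA-1 (10.2), CH1 (9.77) and A2780 (9.97) but stood at 5.66 in IGROV-1, and it was 8.64 in OVCAR-10, where LIN28A was 5.04. Not all genes of this kind followed. DPPA4 deviated from the batch mean by 2.05 in PA-1 and 1.34 in CH1, but by -0.13 in A2780 and -0.16 in IGROV-1. L1TD1 deviated by 0.59, 0.03, -0.05 and 0.03 in the same lines, and by 1.24 in OV90. A few arrays went against their labels in a comparison of each array with all others. The cisplatin culture 1 of OVCAR-10 correlated at 0.53 with an untreated DOV13B array and at 0.39 with the nearest array of OVCAR-10, and both OAW28 arrays, the untreated OVCAR-2 array and the treated TOV-21G array were nearest to another line. The treated culture 3 of OVCA420 stood apart from the other cultures of that line, and its nearest other line was OVCA429, at 0.51. The arrays of Hey and of OV56 resembled each other little, at 0.39 and 0.46. The test for a change over all lines was repeated without these cultures, OV56 aside, and several correlations over the lines are given both ways. Changes within single lines are given both ways for some only.

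**Figure D1:**
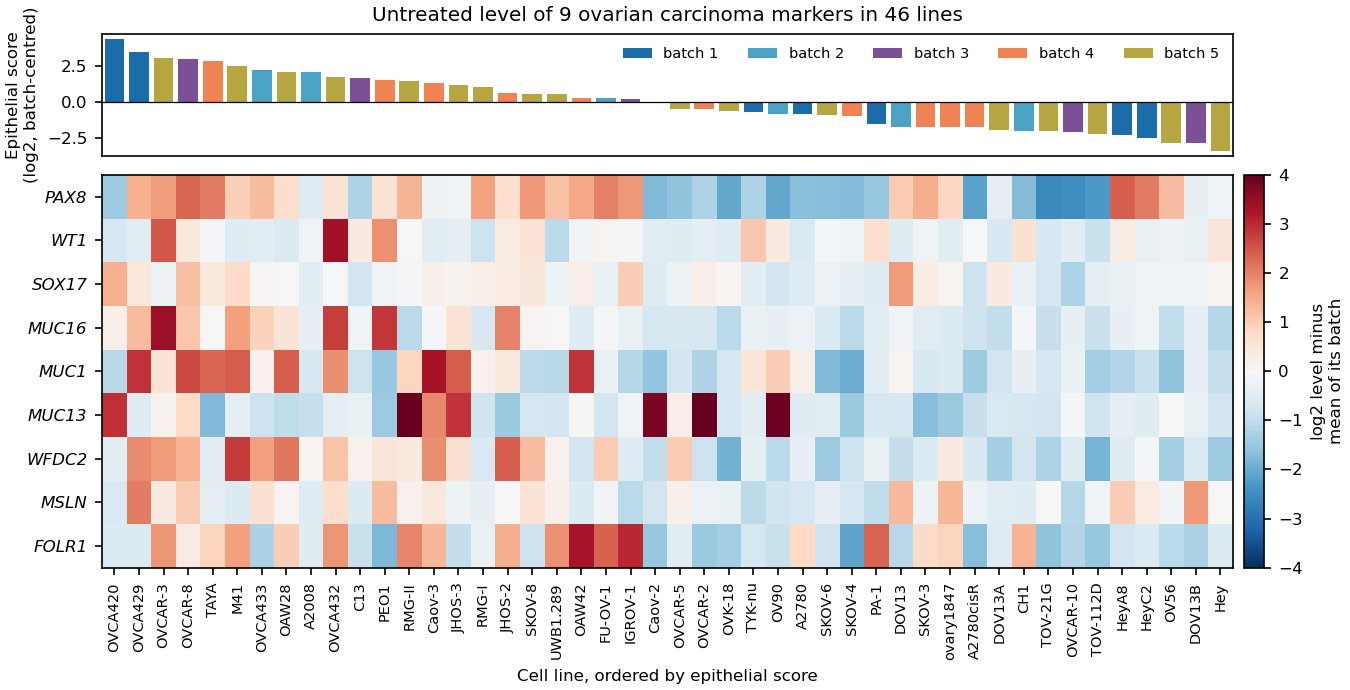
The heatmap shows the untreated log2 level of each marker in each of the 46 lines minus the mean of the lines of its batch, with lines ordered by an epithelial score (mean of 18 epithelial minus mean of 16 mesenchymal genes, bars on top, coloured by batch). PAX8 was high in lines from both ends of the score, whereas high MUC16, MUC1 and WFDC2 gathered at the epithelial end, and MUC13 was high in a few lines only.

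The level of all 9 markers differed between untreated lines of the same batch (F test over the lines of batches 1 to 3 with limma, adjusted p from 1.78e-44 for MUC13 to 6.86e-23 for WT1). This was true of 86.8% of all genes, so it does not set the markers apart. The pairs of lines differed more for some markers than for others. Of 46 within-batch pairs, 36 differed for PAX8, 34 for MSLN, 32 for WT1, 29 for FOLR1, 28 for MUC1, 27 for SOX17, 25 for WFDC2, 20 for MUC16 and 15 for MUC13, against 48% of all gene and pair tests.

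PAX8 ranged widely between lines, with a step in batch 1 and a more graded order in the other batches. In batch 1 it stood at 9.78 ± 0.22 (SD, n = 3) in HeyA8, 9.44 ± 0.17 in HeyC2 and 8.80 ± 0.10 in OVCA429, and between 5.72 and 6.14 in TYK-nu, OVCA420, PA-1 and A2780. The step from OVCA429 to TYK-nu was 2.66 on the log2 scale (adjusted p = 3.01e-15), while neighbours among the 4 low lines did not differ beyond their spread. In batch 2 FU-OV-1 (9.72 ± 0.07), OVCA433 (8.96 ± 0.13) and DOV13 (8.73 ± 0.13) were high, A2008 intermediate (7.19 ± 0.64), and CH1 and OV90 low at 5.98 and 5.66. In batch 3 OVCAR-8 at 10.42 ± 0.21 and IGROV-1 at 9.87 ± 0.23 did not differ beyond their spread (adjusted p = 0.0826), DOV13B and C13 followed at 7.79 and 6.90, and OVCAR-10 was lowest at 5.65. Among the single cultures PAX8 ran from 4.73 in A2780cisR to 8.92 in TAYA in batch 4, and from 4.25 in PA-1 to 9.07 in SKOV-8 in batch 5. OVCA433 lay 1.25 above the mean of batch 2 but 0.17 above that of batch 4. High PAX8 was not limited to lines with an epithelial profile, since HeyA8, HeyC2 and OV56 were high for PAX8 and lay in the mesenchymal range of the score.

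WT1 was high in few lines. In batch 5 it stood at 8.89 in OVCA432 and 8.03 in OVCAR-3, against 4.48 to 6.10 in the other lines of that batch. In batch 4 PEO1 had 6.74 and the other lines 4.47 to 5.24. In batches 1 to 3 the levels were closer together, with TYK-nu (7.35 ± 0.18, n = 3) above PA-1 (6.95 ± 0.21, adjusted p = 0.0245) and HeyA8 (6.59 ± 0.07) in batch 1, CH1 highest in batch 2 (6.74 ± 0.17) and a range of 0.86 in batch 3. In batch 2 neighbouring lines did not differ in WT1 beyond their spread.

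SOX17 stood clear of the other lines in 4 of the replicated lines. It was 8.45 ± 0.31 in OVCA420 (n = 3), followed in that batch by OVCA429 at 7.44 ± 0.12, a difference of 1.01 (adjusted p = 1.95e-05). DOV13 had 8.83 ± 0.14 against 7.16 ± 0.23 in the next line, OVCA433 (adjusted p = 1.14e-10). OVCAR-8 and IGROV-1, at 8.84 ± 0.19 and 8.61 ± 0.34, did not differ from each other beyond their spread (adjusted p = 0.411) and lay above DOV13B at 7.45 ± 0.33 (IGROV-1 against DOV13B, adjusted p = 1.51e-06). The single cultures of batches 4 and 5 spanned less, from 4.80 in A2780cisR to 6.04 in TAYA and from 5.17 in TOV-21G to 6.66 in M41. OVCA420 thus combined the highest SOX17 of its batch with a low PAX8, whereas OVCAR-8 and IGROV-1 were high for both.

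Among the mucins, MUC16 was high in 1 line of each replicated batch. OVCA429 stood at 6.59 ± 0.06, above OVCA420 at 5.54 ± 0.19 (n = 3 each, adjusted p = 2.59e-11) and the 5 other lines of batch 1 between 4.87 and 5.16. OVCA433 (6.15 ± 0.07) and OVCAR-8 (6.46 ± 0.22) led batches 2 and 3, with the next lines at 5.17 and 5.20. Single cultures went higher relative to their batch, with 8.84 in OVCAR-3, 8.21 in OVCA432 and 7.08 in M41 in batch 5, and 7.91 in PEO1 and 7.06 in JHOS-2 in batch 4. The lowest values were 4.22 and 4.01 in those batches.

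MUC1 was highest in OVCA429 (9.21 ± 0.37, n = 3) in batch 1 and in OVCAR-8 (9.48 ± 0.13) in batch 3. These stood 2.39 and 2.91 above the next lines of their batches, TYK-nu at 6.82 and OVCAR-10 at 6.58 (adjusted p = 1.32e-11 and 6.96e-15). In batch 2 OV90 was highest at 7.29 ± 0.28. Caov-3 (9.61), OAW42 (9.18) and TAYA (8.57) led batch 4, and M41 (8.28), JHOS-3 (8.28), OAW28 (8.25) and OVCA432 (7.72) led batch 5. PEO1, among the highest for MUC16, was low for MUC1 at 4.78, within a batch that reached down to 4.30. OVCA433 was measured in 2 batches, and its MUC1 deviated by 0.18 from the mean of batch 2 and by -1.24 from that of batch 4. The 2 batches differ in their other lines, cultures and scale, and the cause of the gap was not tested.

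MUC13 was low in most lines and high in a few. In batch 1 OVCA420 had 6.41 ± 0.16 (n = 3) and the other 6 lines 2.83 to 3.15, a gap of 3.26 to the next line (adjusted p = 8.66e-27). In batch 2 OV90 had 7.72 ± 0.36 and the others 2.88 to 3.11. In batch 3 OVCAR-8 had 3.99 ± 0.36, above the 2.90 to 3.15 of the other lines by 0.84 or more (adjusted p = 8.25e-05 against OVCAR-10). OVCAR-2 (8.41), Caov-2 (7.66) and Caov-3 (5.81) stood out in batch 4, and RMG-II (7.98) and JHOS-3 (6.01) in batch 5, where 13 lines lay between 2.00 and 2.74. The low lines did not differ from one another beyond their spread in batches 1 to 3.

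The markers released into blood or held at the surface differed in the lines they favoured. WFDC2 was high in OVCA429 (7.89 ± 0.28, n = 3) of batch 1, OVCA433 (8.29 ± 0.25) and FU-OV-1 (7.68 ± 0.07) of batch 2 and OVCAR-8 (7.54 ± 0.27) of batch 3. The other lines of these batches lay at 5.54 to 5.96, 5.57 to 6.75 and 5.59 to 6.32. The single cultures of batch 5 reached 9.53 in M41, 8.84 in OAW28 and 8.41 in OVCAR-3, with a lowest value of 4.49 in PA-1. In batch 4 the highest was OVCA433 at 8.42. WFDC2 of OVCA433 was high in both batches in which the line was measured, 1.64 and 2.28 above the batch means.

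MSLN was highest in OVCA429 (8.66 ± 0.21, n = 3) in batch 1, DOV13 (7.68 ± 0.25) in batch 2 and DOV13B (8.63 ± 0.13) in batch 3. HeyA8 (7.58 ± 0.26) and OVCAR-8 (7.91 ± 0.32) came next in batches 1 and 3. OVCA429 exceeded HeyA8 by 1.08 (adjusted p = 4.62e-05), HeyA8 exceeded HeyC2 at 6.93 by 0.65 (adjusted p = 0.0304) and DOV13B exceeded OVCAR-8 by 0.73 (adjusted p = 0.00575). In batch 5 MSLN was flat, from 4.43 in M41 to 5.68 in OVCA432, and in batch 4 ovary1847 (6.38) and PEO1 (6.31) led a range down to 4.30.

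FOLR1 was highest in PA-1 (7.70 ± 0.11, n = 3) in batch 1, FU-OV-1 (8.58 ± 0.12) in batch 2 and IGROV-1 (9.13 ± 0.21) in batch 3. CH1 (7.62 ± 0.18) came next in batch 2. PA-1 exceeded A2780 (6.18 ± 0.05) by 1.52 (adjusted p = 4.62e-10), and A2780 exceeded OVCA429 (4.85 ± 0.17) by 1.33 (adjusted p = 2.03e-08). FOLR1 of PA-1 lay 2.31 above the mean of batch 1 and 0.80 above that of batch 5. PA-1 and CH1, both high for LIN28A and SALL4, were low for PAX8, while IGROV-1, high for LIN28A alone of these germ cell genes, was high for PAX8. In A2008 the 3 untreated cultures were unlike, at 7.01, 5.07 and 5.18. OAW42 led batch 4 with 8.82, and RMG-II, UWB1.289, OVCAR-3, OVCA432 and M41 lay between 6.79 and 7.11 in batch 5.

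Some markers were high in the same lines. Over the 46 lines, with levels as deviations from the batch mean, the closest pair was MUC16 and WFDC2 (Pearson 0.71, Spearman 0.77). WT1 and MUC16 came next by Pearson correlation (0.64) but not by Spearman correlation (0.25), and OVCA432, OVCAR-3 and PEO1 were far above the rest of their batches in both. MUC1 and WFDC2 (0.57 and 0.53) and PAX8 and SOX17 (0.51 and 0.59) were lower by Pearson correlation. All these points share arrays, so the correlations describe the lines and carry no p. With the epithelial score the correlation was 0.65 for WFDC2, 0.61 for MUC16, 0.53 for MUC1, 0.38 for SOX17, 0.33 for PAX8, 0.28 for FOLR1, 0.19 for MUC13, 0.18 for WT1 and 0.10 for MSLN. For WFDC2 and MUC16 it was much the same in batches 1 to 3 (0.64 and 0.70, 18 lines) and in batches 4 and 5 (0.71 and 0.69, 28 lines). For MUC1 it was 0.37 and 0.66, for PAX8 0.14 and 0.51 and for SOX17 0.42 and 0.36. For WT1 and FOLR1 it was -0.20 and -0.04 in the first set and 0.36 and 0.52 in the second. Without Hey, OAW28, OVCAR-2 and TOV-21G, over 42 lines, the values for WFDC2, MUC16, MUC1 and PAX8 were 0.62, 0.58, 0.51 and 0.30, and that of MUC16 with WFDC2 was 0.70. OVCA420, the line with the highest score, was an exception for MUC1 and WFDC2, at 5.23 and 5.59.

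**Figure D2:**
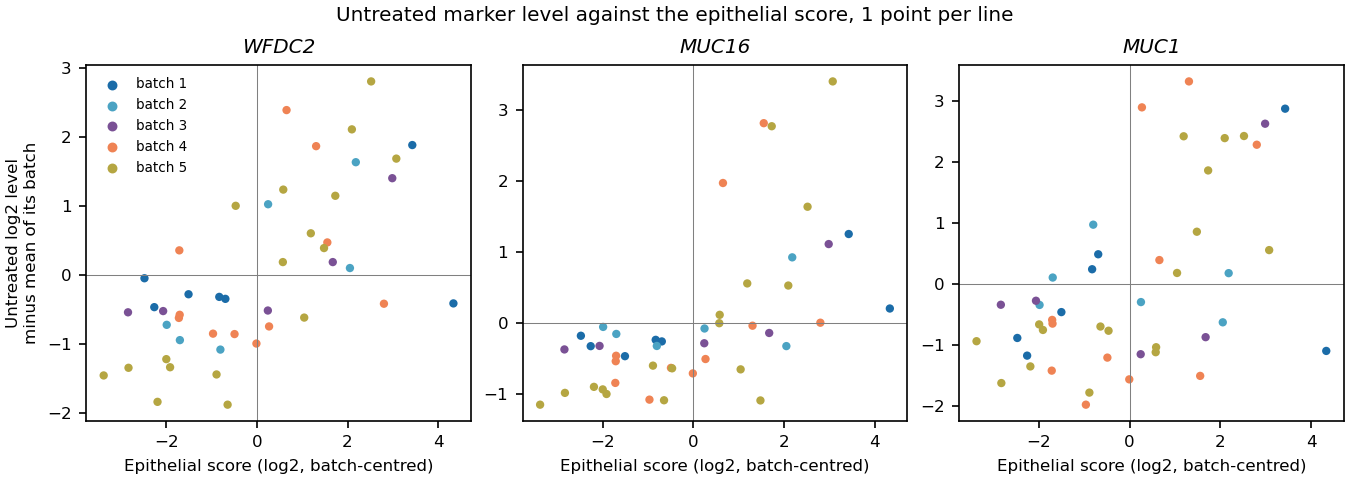
Untreated log2 level of WFDC2, MUC16 and MUC1 minus the batch mean (y) against the epithelial score (x), 1 point per line, coloured by batch, 46 lines. Lines with a positive score include nearly all high values of the 3 genes (r = 0.65, 0.61 and 0.53; for MUC1 0.37 in batches 1 to 3 and 0.66 in batches 4 and 5), and OVCA420, at the far right, lies low for WFDC2 and MUC1.

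The genes whose untreated level was most like each marker over the 46 lines were found by Pearson correlation among all 18417 genes. For PAX8 they included WWC1 (0.76) and ARHGAP29 (0.75). For WT1 they were EYA2 (0.78), the kallikrein KLK7 (0.69) and WT1-AS (0.66), the antisense transcript that overlaps WT1, so the 2 may share signal. SOX17 was nearest to WNT7A (0.74), ZBED10P and RASSF7. For MUC16 CLIC5 (0.85), KLK7 (0.78) and KLK6 (0.73) were nearest, and for MUC1 HLA-DMA (0.67), VTCN1 (0.67), which encodes the surface protein B7-H4, and FNTA (0.65). MUC13 was nearest to the intestinal cadherin CDH17 (0.83), CLRN3 (0.78) and EPS8L3 (0.78), an actin regulator. WFDC2 was nearest to MACC1 (0.78), the sodium channel subunit SCNN1A (0.76) and the epithelial transcription factor GRHL2 (0.75). MSLN was nearest to GAS6 (0.76), a ligand of the TAM receptors, LAYN and MELTF, and FOLR1 to the growth factor FGF18 (0.76), TMEM254 and NID2. These come from the 3 top genes per marker in a search over all genes, and the values are descriptions. Without Hey, OAW28, OVCAR-2 and TOV-21G, 20 of these 27 genes were still among the 3 nearest, and none fell below the sixth place.

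MUC13 also varied with the list of 7 gastrointestinal markers (CDX2, CDX1, KRT20, VIL1, CDH17, LGALS4 and TFF3; Pearson 0.74, Spearman 0.53; 0.68 and 0.44 without Hey, OAW28, OVCAR-2 and TOV-21G). The list mean was 1.84 above the batch mean in OVCA420, 1.84 in Caov-2 and 1.65 in OVCAR-2, whose untreated array was nearest to Caov-2. It was 0.71 in RMG-II and 0.33 in OV90, but -0.40 in Caov-3 and -0.15 in JHOS-3, both high for MUC13. TOV-112D had a list mean of 0.46 with MUC13 at 2.35. In OVCA420 LGALS4, a galectin of the gut, stood at 11.7 and KRT20, an intestinal keratin, at 8.70, whereas in OV90 they stood at 5.85 and 4.47. CDH17 was 1.85 and 1.62 above the batch mean in OVCA420 and OV90. MSLN varied with the 6 mesothelial markers (r = 0.50), as did PAX8 (0.48).

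Over all 46 lines, none of the 9 markers passed the test for a change under cisplatin (limma, 1 difference per line, Benjamini-Hochberg over 18417 genes), while 9.7% of all genes did, 4.98% higher and 4.72% lower. At an unadjusted p under 0.05, 2 of 9 did, PAX8 and MUC13. PAX8 was on average 0.20 ± 0.08 (SE) lower under cisplatin (95% interval -0.36 to -0.05, adjusted p = 0.0916), with 20 of 46 lines higher. MUC13 was 0.32 ± 0.13 higher (0.07 to 0.58, adjusted p = 0.106), with 21 of 46 lines higher. For the others the mean change lay between -0.04 for SOX17 and 0.12 for FOLR1 (-0.03 to 0.28, adjusted p = 0.357). The 95% intervals were -0.08 to 0.07 for WT1, -0.05 to 0.15 for MUC16, -0.13 to 0.13 for MUC1, -0.15 to 0.13 for WFDC2 and -0.09 to 0.13 for MSLN.
Without the cultures of OVCAR-10 and OVCA420 that stood apart, the PAX8 change was -0.22 with an adjusted p of 0.0443, and without Caov-3 the MUC13 change was 0.37 with an adjusted p of 0.0473. Without Hey, OAW28, OVCAR-2 and TOV-21G the changes were -0.16 (adjusted p = 0.131) and 0.28 (adjusted p = 0.194), and no marker passed.

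**Figure D3:**
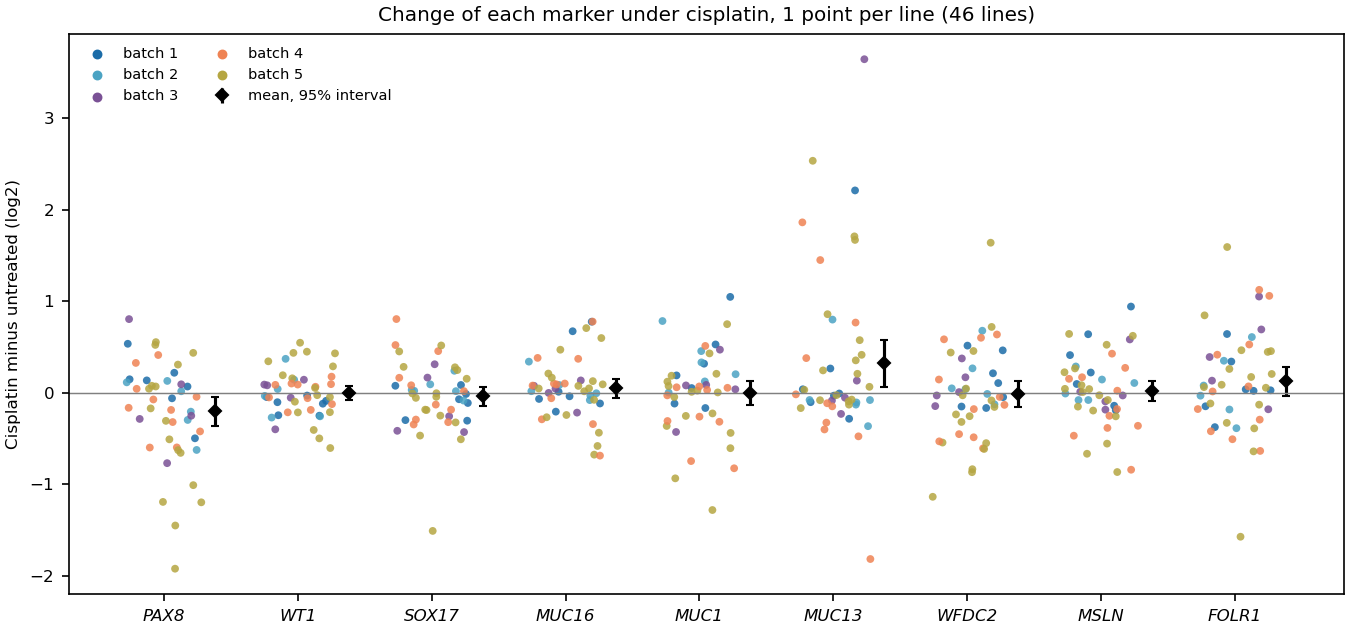
Change of each marker under cisplatin (cisplatin minus untreated, log2), 1 point per line coloured by batch, with the mean over 46 lines and its 95% interval as a black diamond and bar. MUC13 has the widest spread, from -1.82 in Caov-3 to 3.64 in OVCAR-8, and the 5 PAX8 points at or below -1 all belong to batch 5.

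The small mean of MUC13 hid large changes in single lines. Its spread over the lines exceeded that of 99.8% of genes, and the median change was -0.02. It was higher under cisplatin by 1 log2 unit or more in 7 lines and lower by as much in 1. In OVCAR-8 the untreated cultures had 4.40, 3.72 and 3.85 and the treated cultures 6.98, 8.03 and 7.88. The groups did not overlap, and MUC13 rose 12.5-fold (3.64 ± 0.19 SE on the log2 scale, adjusted p = 1.74e-27). In OVCA420 it went from 6.48, 6.54 and 6.23 to 8.69, 8.80 and 8.38, again without overlap, a 4.63-fold rise (adjusted p = 2.58e-15). In OV90 it went from 7.31, 7.95 and 7.89 to 8.48, 8.52 and 8.55 (0.80, adjusted p = 0.00414). Every treated OV90 culture was above every untreated one, but the call rested on the untreated culture 1, without which the change was 0.59 (adjusted p = 0.124).

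Markers of other cell types moved in these lines too, where 11.5% of all genes passed the same test in OVCA420, 13.4% in OVCAR-8 and 2.92% in OV90. In OVCA420 3 of the 7 gastrointestinal markers rose, VIL1 by 0.92, CDH17 by 0.61 and KRT20 by 0.45 (adjusted p = 1.46e-06, 0.000788 and 0.0226), while LGALS4 was at -0.12. EPS8L3, among the genes most like MUC13, rose by 1.11 in OVCA420 and by 0.74 in OVCAR-8. In OVCAR-8 TFF3, a secreted trefoil peptide, was the 1 of 7 markers that rose (0.55, adjusted p = 0.00195). That count is near the share of all genes that passed in this line. In OV90 the germ cell marker LIN28A fell from 8.23, 8.19 and 8.37 to 6.42, 6.03 and 6.16 (-2.06, adjusted p = 5.10e-15) and SALL4 by 0.72, and the mean of the 7 germ cell markers changed by -0.51. CH1, of the same batch, had LIN28A at 12.6. The part of these shifts in the MUC13 results was not tested. In bulk cultures, a change in the number of cells that express a gene and a change in its RNA per cell cannot be told apart.

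Single cultures gave differences of similar size, which have no replicate check. Of the 252 marker and line pairs in the 28 lines with 1 culture per treatment in a batch, 9 were higher and 10 lower under cisplatin by 1 log2 unit or more, and 4.74% of all gene and line pairs differed that much. Of these, 5 higher values and 1 lower were MUC13. MUC13 was 3.39 untreated and 5.93 treated in OVCAR-5, 3.94 and 5.80 in OAW42, 3.12 and 4.79 in OV56, and 7.66 and 9.11 in Caov-2. Hey went from 2.38 to 4.09. The arrays of OV56 and of Hey stand apart, and the means of their mesenchymal and germ cell markers shifted too, by values given with PAX8, whose part in MUC13 was not tested. Caov-3 was the line with a large difference the other way, from 5.81 to 4.00. In RMG-II, with a high untreated level, the values were 7.98 and 8.01, so a high level did not always go with a large difference.

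**Figure D4:**
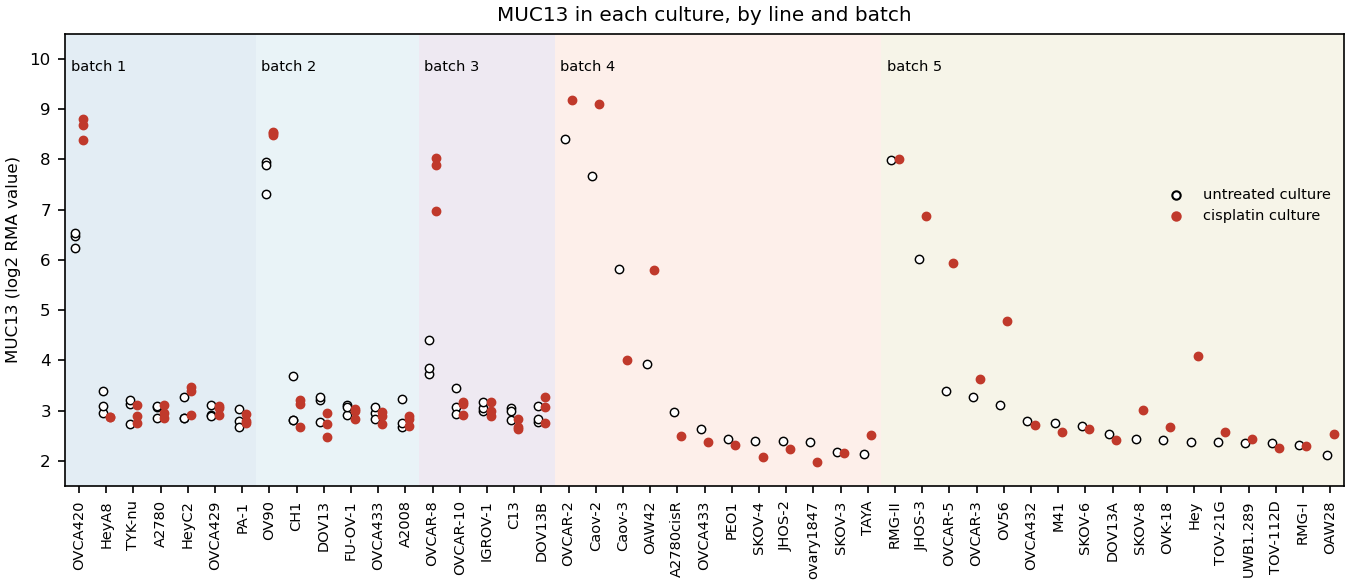
MUC13 in every culture (log2 RMA value), untreated in white and cisplatin in red, by line and batch, for lines with both arms. Most lines lie low in both arms, and OVCAR-8, OVCA420, OVCAR-5, OAW42, OV56 and Hey show treated cultures far above the untreated ones, whereas Caov-3 shows the reverse. Batches 1 to 3 and 4 to 5 are on different scales.

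Across the 18 replicated lines, 13 of 162 marker and line pairs passed the within-line test, 12 higher and 1 lower. Of all gene and line pairs 8.23% passed, higher or lower, so the count of markers is near that share. The share by direction over all genes is not given here, so the split does not set the markers apart. OVCA420 held 4 of the 13 and OVCAR-8 held 3, lines in which 11.5% and 13.4% of all genes passed. The other 6 were spread over 6 lines, HeyA8, OVCA429, OV90, FU-OV-1, OVCA433 and IGROV-1, in which 13.7%, 3.9%, 2.92%, 27.8%, 2.68% and 6.96% of genes passed. MUC16 rose in OVCA429, where untreated cultures had 6.66, 6.57 and 6.55 and treated ones 7.10, 7.26 and 7.74 (0.78, adjusted p = 1.25e-05), and in OVCA420, from 5.49, 5.39 and 5.75 to 6.18, 6.21 and 6.26 (0.67, adjusted p = 5.95e-05). Neither pair of groups overlapped, and both calls held when any single culture was left out. A lack of overlap in pairs past the threshold follows largely from that choice, and its share over all genes is not given here. In the other 16 lines MUC16 passed in none, with 0.36 in OVCA433 from 6.13, 6.23 and 6.09 to 6.38, 6.35 and 6.81.

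MUC1 passed in OVCA420 and OVCA433. In OVCA420 the treated cultures had 5.64, 5.34 and 7.86 against 4.95, 5.17 and 5.58 untreated, so the groups overlapped and the change of 1.05 (adjusted p = 0.00737) came from the treated culture 3, which stands apart. Its nearest other line, OVCA429, had MUC1 at 9.21 untreated, and the part of that likeness was not tested. Without this culture the change was 0.26 (adjusted p = 0.696). In OVCA433 MUC1 went from 6.26, 6.47 and 6.77 to 7.47, 7.56 and 7.35 without overlap (0.96, adjusted p = 0.0446), a call that held in 1 of 6 leave-outs of a single culture. The single OVCA433 cultures of batch 4 had 4.93 and 5.18. M41 showed the largest difference downwards among single cultures, with a change of -1.28 from 8.28.

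**Figure D5:**
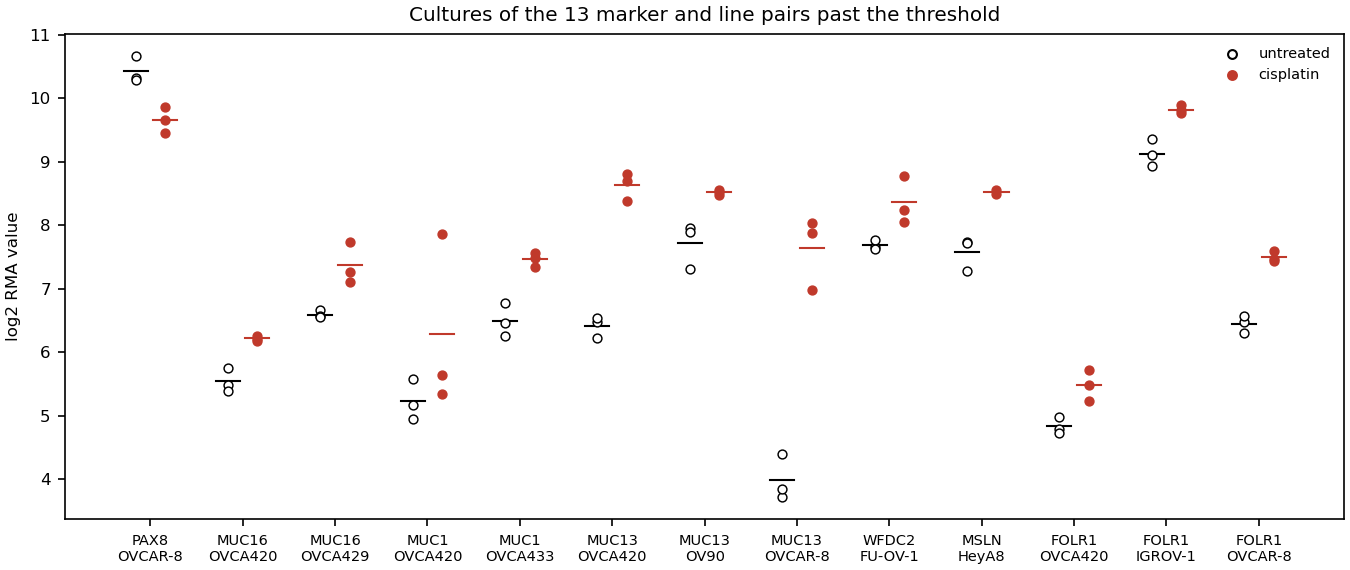
Cultures of the 13 marker and line pairs past the threshold, with untreated in white and cisplatin in red and a bar at each mean (log2 RMA value, up to 3 cultures per group). The groups overlap only for MUC1 in OVCA420, where 1 treated culture lies at 7.86. The pairs were picked for passing the threshold, so groups without overlap are no separate support. Levels of different genes are not comparable on this axis.

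Of the transcription factors, only PAX8 passed, in 1 replicated line. In OVCAR-8 it fell from 10.66, 10.31 and 10.28 to 9.85, 9.45 and 9.65 (-0.77, 1.70-fold, adjusted p = 0.0328), and the call held in 2 of 6 leave-outs of a single culture and in none of the 3 that left out a culture number from every line. In FU-OV-1 PAX8 went from 9.79, 9.74 and 9.64 to 9.01, 9.21 and 9.08 and missed the threshold (-0.62, adjusted p = 0.0611). In OVCAR-10 the treated culture 1, which resembles DOV13B, had 7.41 against 6.01 and 5.96 in the other treated and 5.87, 5.75 and 5.35 in the untreated cultures (0.81, adjusted p = 0.0552), and MSLN in the same culture was 7.52 against 5.90 and 5.55. DOV13B itself had PAX8 at 7.79 and MSLN at 8.63. When a culture number was left out, the changes in OVCAR-10 ranged from 0.44 to 1.08 for PAX8 and from -0.06 to 1.02 for MSLN. Among the single cultures PAX8 was lower under cisplatin by more than 1 in Hey (7.15 to 5.23), OV56 (8.55 to 7.10), OAW28 (8.04 to 6.84), RMG-I (8.95 to 7.76) and UWB1.289 (8.50 to 7.49), all in batch 5. The mean PAX8 change was -0.41 over the 17 lines of that batch, and 0.08, -0.14, -0.08 and -0.15 in batches 1 to 4. In Hey and OV56 the mean of the 16 mesenchymal markers changed by -0.68 and -0.53 and that of the germ cell markers by 0.62 and 0.46; the part of these shifts in the PAX8 values was not tested.

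WT1 and SOX17 passed in none of the 18 lines. Their largest changes were both in C13, where WT1 went from 6.13, 6.32 and 6.28 to 5.87, 5.53 and 6.13 (-0.40, adjusted p = 0.0585). SOX17 there went from 6.81, 7.08 and 6.70 to 6.66, 5.79 and 6.86 (-0.43, adjusted p = 0.141), a value that came from the treated culture 2. In Hey SOX17 was 6.01 untreated and 4.50 treated, with no replicate.

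FOLR1 rose in 3 lines. In OVCAR-8 it went from 6.48, 6.57 and 6.30 to 7.43, 7.59 and 7.47, without overlap (1.05, 2.07-fold, adjusted p = 5.27e-05), and the call held in 6 of 6 leave-outs. In IGROV-1, the line with the highest FOLR1 in batch 3, it went from 9.10, 9.35 and 8.93 to 9.76, 9.81 and 9.89 (0.69, adjusted p = 0.0197), and in OVCA420 from 4.98, 4.79 and 4.73 to 5.49, 5.72 and 5.23 (0.64, adjusted p = 0.0222). The groups did not overlap in either, but the calls held in 1 and 2 of 6 leave-outs. Among single cultures FOLR1 was 6.92 and 8.51 in OVCA432, 6.41 and 7.53 in ovary1847, 6.42 and 7.48 in TAYA and, the other way, 6.99 and 5.42 in UWB1.289.

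WFDC2 rose in FU-OV-1, from 7.65, 7.76 and 7.62 to 8.05, 8.78 and 8.24 (0.68, adjusted p = 0.00148), without overlap. Without the treated culture 2 it missed the threshold (adjusted p = 0.0639). In OVCA429 WFDC2 went from 7.96, 8.13 and 7.59 to 8.23, 8.43 and 8.56 (0.52, adjusted p = 0.0845). Single cultures of OVCA432 had 7.87 untreated and 9.51 treated, and those of OAW28 8.84 and 7.70. MSLN rose in HeyA8, from 7.74, 7.28 and 7.71 to 8.48 and 8.55 in its 2 treated cultures (0.94, adjusted p = 0.00614), a call that held in 3 of 5 leave-outs. In OVCA420 the MSLN change was 0.64 (adjusted p = 0.0575). It ranged from 0.27 to 0.99 when a culture number was left out, and this line holds the treated culture 3 that stands apart.

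The size of the cisplatin change itself differed between the replicated lines for 5 of the 9 markers, against 51% of all genes (F test with limma). These were MUC13 (adjusted p = 1.52e-23), MUC16 (2.31e-05), FOLR1 (0.000132), PAX8 (0.020) and WFDC2 (0.0277). WFDC2 missed the threshold without the untreated culture 3 or the treated culture 2 of FU-OV-1 (adjusted p = 0.0503 and 0.0689). For MSLN (0.0923), MUC1 (0.119), WT1 (0.193) and SOX17 (0.486) a difference between lines was not shown. Among 47 fits that left out 1 culture, MUC1 passed in 2 and MSLN in 1.

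Related lines were set against each other, namely HeyC2 with HeyA8, C13 with A2008 and DOV13B with DOV13. None of the markers passed limma's test of a difference in the change in any of these pairs, where 0.755%, 4.82% and 0.0814% of all genes passed, and 3 of the 27 values had an unadjusted p under 0.05, all in C13 with A2008. The largest was FOLR1, whose change was 0.78 ± 0.28 (SE) higher in C13 than in A2008 (adjusted p = 0.0911). This rested on the untreated A2008 culture at 7.01, without which the difference was 0.15 (adjusted p = 0.744). No slope of a marker's change on the epithelial score of the untreated line passed either, with values per SD of the score from -0.05 for MUC1 to 0.13 for WFDC2 and MUC13. In that limma fit 0 of 18383 genes passed (0%), while 2007 had an unadjusted p under 0.05 and none of the markers did. The lowest adjusted p among the markers was 0.489, for WFDC2.

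The other genes of these pathways were taken from lists and are described by counts in the test over 46 lines. In that test 4.98% of all genes rose and 4.72% fell. Of 11 Müllerian and tract genes, OVGP1, the oviduct glycoprotein, rose by 0.25 and EMX2, a homeobox factor of the tract, fell by 0.18. Of 22 other secreted or surface markers, LCN2 (0.43), a lipocalin, and CRABP2 (0.31) rose and the cadherin CDH6 (-0.39) fell. Of 14 whey-acidic-protein genes, the relatives of WFDC2, the protease inhibitors PI3 (0.40) and SLPI (0.26) rose. None of 13 other mucins passed, with MUC12 at 0.24 (adjusted p = 0.101), and none of 7 folate receptors and carriers, 9 relatives of PAX8 and SOX17 or the single mesothelin relative. The median change was -0.0016 over the 9 markers and -0.0061 over all genes. Among cell type markers, 3 of 18 epithelial genes fell (KRT19, CLDN3 and ESRP2, by 0.23, 0.19 and 0.15). The median change of the 18 was 0.020, so the list as a whole did not fall. Within the replicated lines, 21 of the 324 epithelial gene and line pairs passed as higher and 3 as lower. For the other secreted or surface markers it was 24 and 5 of 396. Of all gene and line pairs 8.23% passed, higher or lower, and the share by direction is not given here. None of 16 mesenchymal, 7 germ cell, 7 sex cord, 6 mesothelial, 7 gastrointestinal or 6 endothelial genes passed over the 46 lines, and 1 of 7 leukocyte genes, LYZ, rose by 0.35. Of genes most like the markers, HLA-DMA rose by 0.38 (adjusted p = 6.37e-05) and WT1-AS fell by 0.17 (adjusted p = 0.021).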

How the data were processed

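Per the submitters' processing notes the values were made with RMA, whose version is not given in the sources used here. A single deposited table gave log2 values of 33297 probe sets, all arrays together. Probe sets with 1 symbol in the platform annotation were kept (19460), and per gene the one with the highest mean, which gave 18417 genes. The 4 repeat arrays of a culture were averaged with it.

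Comparisons were made in R 4.3.3 with limma 3.58.1, with Benjamini-Hochberg adjustment over all genes and a threshold of 0.05. Over all lines, 1 difference per line, cisplatin minus untreated within its batch, was tested against 0 (165 cultures). Within lines, between lines and for untreated levels, a group-means model was fitted to the 107 cultures of batches 1 to 3 (71 residual degrees of freedom). Slopes on the epithelial score left its own genes out. Arrays carry no read depth, so their number limits the precision. The methods were tested on simulated data.

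The members and lists were chosen with earlier results of these data known. The text names all members, per member the 3 most alike genes and the 2 replicated lines that changed most, per list up to 3 genes past the threshold, or the 1 with the largest change, and EPCAM, CDH1 and markers of the line type; EPS8L3, LIN28A and SALL4 in single lines, KRT8 and the single cultures with differences of 1 or more were chosen after their values were seen. One of the genes most like PAX8 is not reported here. Promoter sequence came from RefSeq (GRCh38.p14). Alternatives were other normalizations, a filter on dim genes, equal batch weights, single batches, a replicate block, and leaving out cultures or lines. Same-numbered cultures of a line did not deviate together (7 of 53 correlations over 0.1, median -0.03), so the numbers do not pair them.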

Additional observations from a re-analysis of the deposited data

Results flagged for a closer look

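In groups of 4 to 10 lines of a batch, 5 of 27 marker changes held a line whose gap to the nearest other line was large against the whole range; chance gives about 1 in 20, and 8.07% of 55251 such groups over all genes held one. The MUC13 change stood apart in OVCA420 among the lines of batch 1 (2.21), in OV90 in batch 2 (0.80) and in OVCAR-8 in batch 3 (3.64). The MUC16 change stood apart in OVCA433 in batch 2 (0.36) and the MSLN change in OVCAR-10 in batch 3 (0.58), where the treated culture 1, which resembles DOV13B, had 7.52. That MSLN change ranged from -0.06 to 1.02 when a culture number was left out.

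The change under cisplatin differed between the replicated lines for PAX8, MUC16, MUC13, WFDC2 and FOLR1. The adjusted p of limma's F test was 0.020, 2.31e-05, 1.52e-23, 0.0277 and 0.000132, in that order. The same test was passed by 51% of all genes, so passing alone does not set these markers apart. WFDC2 passed in 45 of 47 fits that left out a single culture, with a highest adjusted p of 0.0689.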

How the results depend on the processing

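The count of markers that passed over all 46 lines was 0 in every alternative but 2. Without the treated cultures of OVCA420 and OVCAR-10 that stand apart it was 1, PAX8, and without Caov-3 it was 1, MUC13 (0.37, adjusted p = 0.0473). Mean changes near 0 turned sign in many settings. MUC1 was 0.0017 with the replicate block, 0.23 in batches 1 to 3, 0.26, 0.35 and 0.050 in batches 1, 2 and 3 alone, 0.067 with batches weighted equally, 0.053 without batch 4, 0.022 without Hey, OAW28, OVCAR-2 and TOV-21G, and 0.53 percentage points by rank on the array. WFDC2 was 0.13 in batches 1 to 3, 0.13, 0.17 and 0.076 in batches 1, 2 and 3 alone, 0.036 with equal weights, 0.0014 without batch 4, 0.0295 with 1 line per related family and 0.0396 without Hey, OAW28, OVCAR-2 and TOV-21G. WT1 was 0.033 in batches 4 and 5, 0.013 and 0.047 in batches 4 and 5 alone, 0.022 with 1 line per family, 0.00103 without PA-1 and CH1, 0.021 after quantile normalization and 0.14 percentage points by rank. MSLN was -0.052 in batches 4 and 5, -0.098 and -0.0195 in each alone, -0.013 with 1 line per family and -0.0024 without the cultures that stand apart. SOX17 was 0.031 in batch 2, 0.1001 in batch 4 and 0.0041 without Hey, OAW28, OVCAR-2 and TOV-21G, and PAX8 was 0.079 in batch 1. The cause was not tested.

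The 13 within-line calls became 6 with dim genes left out, a filter that kept only PAX8, SOX17, MUC1 and WFDC2, and 5 with a minimum change of 1.2-fold, and ranged from 6 to 15 when cultures of 1 number were left out. The 5 markers whose change differed between lines became 2 with dim genes left out, and ranged from 2 to 5 without a number. Between related lines 1 value passed after quantile normalization, FOLR1 in C13 with A2008 (0.84, adjusted p = 0.0399), and from 0 to 2 without a number, WT1 (-0.84) and SOX17 (-1.32) in the same pair without number 3. The SOX17 change in C13 ranged from -0.72 to 0.0014, the latter without number 2. All 9 untreated levels kept their difference, 4 of the 4 left with dim genes left out. With the replicate block 14 within-line pairs passed, 12 of them shared with the 13 (MSLN in HeyA8 was lost) and the other 2 PAX8 in FU-OV-1 and in OVCAR-10 (adjusted p = 0.0281), which holds the culture that resembles DOV13B, and over all lines 0 markers did; the block changed no other count. No replicate block was fitted to untreated levels, since a number within a line does not pair different lines.

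The correlation with the epithelial score was -0.20 for WT1 and -0.036 for FOLR1 in batches 1 to 3. Leaving out Hey, OAW28, OVCAR-2 and TOV-21G, chosen for the correlations after seeing the data, turned none of the 9. Slopes on the score, none of which passed, turned sign in batches 1 to 3 for WT1 (-0.0087), SOX17 (-0.071) and MUC1 (0.092), in batches 4 and 5 for PAX8 (0.041), MUC16 (-0.0056) and MUC13 (-0.18), and without batch 4 for PAX8 (0.013). The lines of batches 4 and 5 have 1 culture per treatment, so their single differences carry no error.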
